A study of Mus musculus with 8 samples.

Results

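Newly formed oligodendrocyte genes are the genes switched on while progenitors commit to the oligodendrocyte fate and before they lay down myelin. Of these, 9 genes were followed, *Bcas1*, *Enpp6*, *Myrf*, *Gpr17*, *Tcf7l2*, *Itpr2*, *Nkx2-2*, *Sirt2* and *Tmem2*, which are known marks of committed progenitors and premyelinating oligodendrocytes and were found by symbol among the 49585 genes of the count table. RNA was sequenced from whole brains of 8 female F1 pups on postnatal day 1, each pup from a different litter. The mothers were C57BL/6J (B) mice that drank water with 0 ppm or 50 ppm CdCl2 from weeks before mating until the litter was born, and the fathers were CAST/EiJ (C) males, so that all 8 pups were B × C hybrids and the groups held 4 pups each. *Bcas1* and *Enpp6* are also among the genes that the study called on these same libraries, so their direction here is not independent evidence.

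Oligodendrocytes are the cells that wrap axons in myelin. Progenitors, marked by *Pdgfra* and *Cspg4*, divide and migrate through the brain. When they stop dividing they pass through a short stage that differs from both progenitors and myelinating cells, marked by the receptor GPR17 and then by BCAS1 and ENPP6, and the transcription factor MYRF then turns on the myelin genes. In the mouse this maturation begins in the spinal cord and hindbrain before birth and reaches the forebrain later. Several of the genes also work in other cells, such as *Tcf7l2* in thalamic neurons, *Itpr2* in astrocytes and *Tmem2* in endothelial cells.

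The sequences of *Bcas1* and *Enpp6*, on which the comparison turned, are shown by the stretches that the study's qRT-PCR assays amplify (values of those assays were not analysed here). The *Bcas1* stretch of 178 bases lies at chr2:170378735-170378912 on the minus strand of GRCm38, in coding exon 8 of 13 of ENSMUST00000013667.2. The *Enpp6* stretch of 118 bases runs from coding exon 1 to exon 2 of 8 of ENSMUST00000039840.14, between chr8:46987128-47030449 on the plus strand. Both were read from GENCODE transcripts, and capitals mark the primer sites.
*Bcas1* amplicon: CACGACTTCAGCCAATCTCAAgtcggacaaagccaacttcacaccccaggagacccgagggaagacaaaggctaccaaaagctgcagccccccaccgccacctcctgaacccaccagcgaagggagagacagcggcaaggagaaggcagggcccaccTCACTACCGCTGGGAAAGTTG
*Enpp6* amplicon: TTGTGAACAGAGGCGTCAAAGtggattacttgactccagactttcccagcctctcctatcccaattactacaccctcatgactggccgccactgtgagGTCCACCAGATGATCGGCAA

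RefSeq promoter windows on GRCm38.p6 were found for 5 of the 9 genes, *Nkx2-2*, *Itpr2*, *Sirt2*, *Enpp6* and *Tcf7l2*, and the 250 bases before each start were searched on both strands for motifs of the factors of this lineage. The motifs were CAGCTG (an E-box bound by OLIG2), ACAAAG (SOX factors), ATCAAAG (TCF7L2, which shares its last bases with the SOX motif), CTGGCAC (MYRF) and CACTTGA (NKX2-2). The window of *Enpp6*, at chr8:46986637-46986886 on the plus strand, held none of them. The window of *Nkx2-2*, at chr2:147186403-147186652 on the minus strand, held 1 match to the motif of its own product. The match starts at position -197 from the RefSeq start used and is shown in capitals. This window lies inside the GENCODE span of the gene, chr2:147177546-147194243, so the start used is not the outermost one. Of all 32851 windows of this length in the table, 2.68% held CACTTGA, 13.0% CAGCTG, 16.5% ACAAAG, 3.21% ATCAAAG and 4.19% CTGGCAC. A second start of *Tcf7l2* held the SOX motif on its opposite strand at position -14, and the other windows held none of the motifs.
*Enpp6* promoter: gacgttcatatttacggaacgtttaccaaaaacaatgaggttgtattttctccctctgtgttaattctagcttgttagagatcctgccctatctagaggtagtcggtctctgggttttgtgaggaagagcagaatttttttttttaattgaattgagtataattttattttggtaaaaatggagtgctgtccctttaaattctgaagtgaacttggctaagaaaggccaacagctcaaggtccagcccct
*Nkx2-2* promoter: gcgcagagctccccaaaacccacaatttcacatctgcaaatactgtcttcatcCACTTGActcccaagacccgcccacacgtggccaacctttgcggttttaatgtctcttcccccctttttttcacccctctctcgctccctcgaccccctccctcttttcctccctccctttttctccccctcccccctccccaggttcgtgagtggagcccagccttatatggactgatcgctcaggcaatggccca

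Each library held 22916434 to 30708087 reads counted on genes of the B genome, and 3 counts, the limit that a count of 0 allows, correspond to 0.098 to 0.132 CPM (reads of a gene per 1000000 reads, after TMM scaling between libraries) for counting error alone. All 9 genes were detected in each of the 8 brains, with 21 to 6909 reads, and all 9 passed the filter on low counts. Neuron markers were abundant in each library, with a summed level of 3842 to 4401 CPM over 5 genes. The control brains differed among themselves in markers of the hindbrain and spinal cord, mostly *Hox* genes. Their summed level was 0.341 and 3.35 CPM in 0 ppm replicates 1 and 2, 46.3 and 56.0 CPM in 0 ppm replicates 3 and 4, and 50.1 to 179 CPM at 50 ppm. The fold changes and ratios of the 9 genes are therefore also given without the first 2 libraries, in a comparison of 2 against 4 brains added after the data had been seen.

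*Bcas1* rose in the brains of maternally exposed pups, to 1.97 times its control level, and was the 1 of the 9 genes to pass the test over all genes. This call was kept in 7 of 19 alternative analyses, among them DESeq2 on either genome. It was lost with voom, with edgeR on the C genome and with regional markers as a covariate, while the direction was the same in all 19. *Enpp6* had the largest fold difference, 3.15-fold, but did not pass that test, and 1 of its exposed brains lay within the control range. *Myrf* followed with a log2 fold change of 0.61, and the remaining genes differed by at most 0.30 on the log2 scale in either direction. Levels at 50 ppm were above those at 0 ppm on average for 7 of the 9 genes, all but *Tcf7l2* and *Tmem2*. With edgeR's quasi-likelihood test, adjusted over 23113 genes, 1 of 9 had an adjusted p-value under 0.05, where 0.0173% of all genes tested did. At an unadjusted p under 0.05, 5 of the 9 genes were higher at 50 ppm and 0 were lower, beside 2.31% and 1.44% of all genes. The 9 genes were chosen with earlier results of these data known, and *Bcas1* and *Enpp6* are calls of the study on these libraries. The contrast with all genes is therefore partly built in. The median log2 fold change over the 9 genes was 0.26, and over all genes tested it was -0.003. The 4 exposed brains lay above the 4 control brains for 1 gene, *Bcas1*, as they did for 1.19% of all genes.

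**Figure D1:**
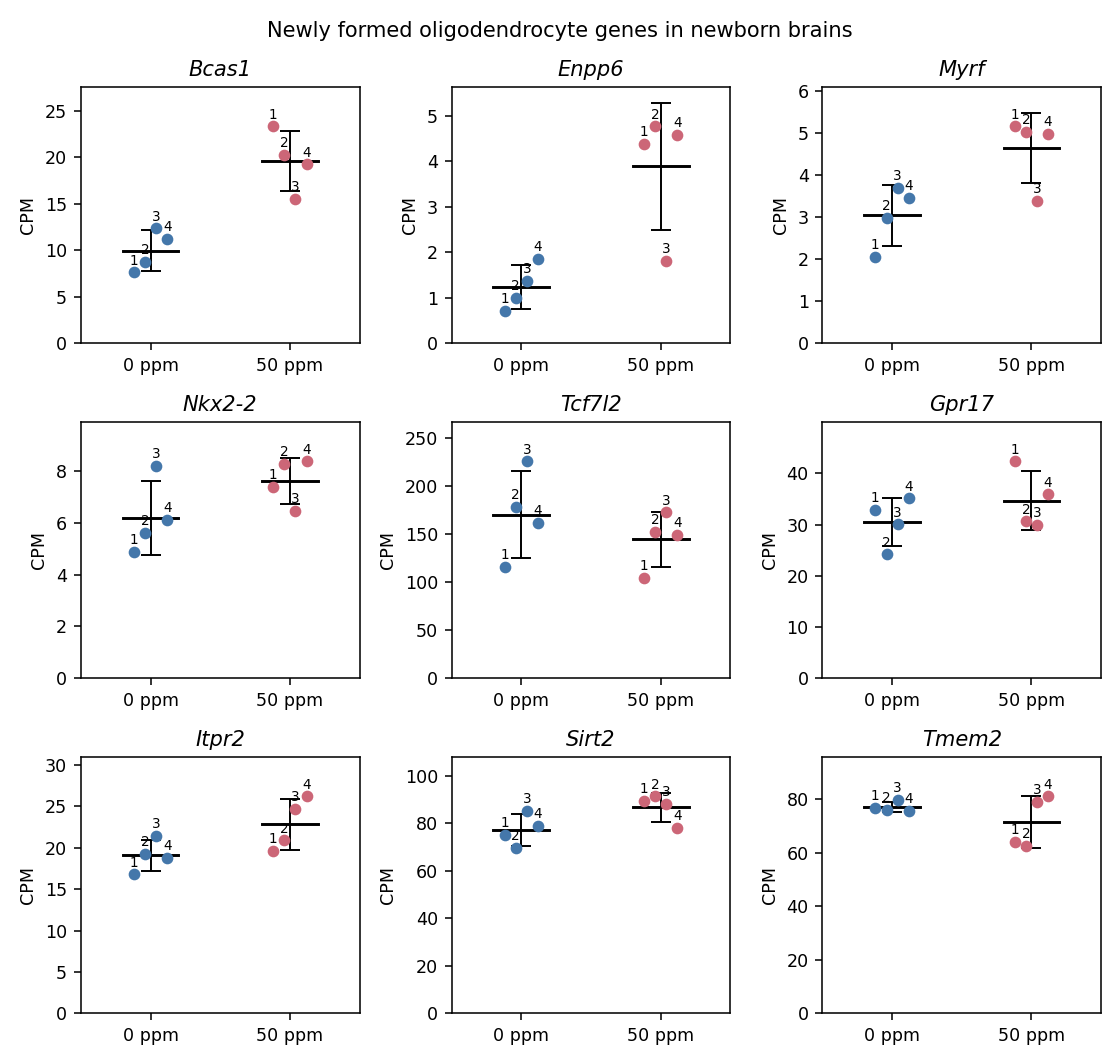
Level of each of the 9 genes in CPM (linear axis from 0) in the 4 brains at 0 ppm (blue) and the 4 at 50 ppm (red); numbers are replicates, the horizontal line is the mean and the bar the SD. For *Bcas1* the exposed brains lie wholly above the control brains (15.5 to 23.3 against 7.61 to 12.3 CPM), and for *Enpp6* and *Myrf* 50 ppm replicate 3 falls back among the controls.

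*Bcas1* (ENSMUSG00000013523; chr2:170346991-170427845, minus strand) encodes a protein of newly formed oligodendrocytes that is lost again as myelin matures. Its level was 7.61, 8.71, 12.3 and 11.2 CPM in 0 ppm replicates 1 to 4 and 23.3, 20.3, 15.5 and 19.2 CPM in 50 ppm replicates 1 to 4. The lowest exposed brain was thus above the highest control brain. The means were 9.96 ± 2.18 CPM and 19.6 ± 3.24 CPM (SD, n = 4). The log2 fold change was 0.97 (SE 0.15, 95% interval 0.66 to 1.29), with an unadjusted p of 4.87e-06 and an adjusted p of 0.0375 in edgeR's quasi-likelihood test. Permuting the doses over the brains, which can be done in 70 ways, gave an exact two-sided p of 0.0286, the smallest it can give. Adjusted over the 9 genes (Benjamini-Hochberg), this permutation p was 0.171, and none of the 9 genes had a lower one. Without 0 ppm replicates 1 and 2 the log2 fold change was 0.73 (SE 0.15) and the adjusted p 0.102 (edgeR). With single brains left out it stayed between 0.86 and 1.10, but the adjusted p was under 0.05 only without 0 ppm replicate 3 (0.00457) or 50 ppm replicate 3 (0.00922), and 0.0662 to 0.384 without any other brain (edgeR). On the C genome the adjusted p was 0.0772, and with hindbrain or forebrain markers as a covariate the log2 fold change was 0.46 or 0.53 and the adjusted p 1.00 for both (edgeR). Exons of *Bcas1os1* and *Bcas1os2* on the opposite strand cover 12.6% of its exon bases, and the strand setting of the count is not given in the sources used here.

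*Enpp6* (ENSMUSG00000038173; chr8:46986887-47096762, plus strand) encodes a choline-specific phosphodiesterase that is transcribed at high level only while oligodendrocytes are newly formed. It was the rarest of the 9 genes, with 0.717, 1.00, 1.37 and 1.859 CPM in 0 ppm replicates 1 to 4, from 21 to 48 reads. At 50 ppm the brains had 4.39, 4.77, 1.82 and 4.59 CPM, from 51 to 136 reads. Replicates 1, 2 and 4 were far above the highest control, while replicate 3 lay below it. The means were 1.24 ± 0.493 CPM and 3.89 ± 1.39 CPM (SD, n = 4). The log2 fold change was 1.65 (SE 0.30, 95% interval 1.02 to 2.29), with an unadjusted p of 3.47e-05 and an adjusted p of 0.134 (edgeR), and the exact permutation p was 0.0571. It ranked 6 among the 23113 genes by p. Without 50 ppm replicate 3 the log2 fold change was 1.90 and the adjusted p 0.00755 (edgeR), and with DESeq2 on all 8 brains the adjusted p was 0.000909, while without 0 ppm replicates 1 and 2 the values from edgeR were 1.27 and 0.278.

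*Myrf* (ENSMUSG00000036098; chr19:10208272-10240748, minus strand) encodes the membrane-bound transcription factor that activates myelin genes. Its level was 2.05, 2.98, 3.69 and 3.45 CPM at 0 ppm, against 5.16, 5.02, 3.39 and 4.98 CPM at 50 ppm. As for *Enpp6*, exposed replicates 1, 2 and 4 lay above all controls and replicate 3 among them. The means were 3.04 ± 0.725 and 4.64 ± 0.835 CPM (SD, n = 4). The log2 fold change of 0.61 (SE 0.20, 95% interval 0.19 to 1.02) had an unadjusted p of 0.0066 and an adjusted p of 0.999 (edgeR), with an exact permutation p of 0.0857. Without 0 ppm replicates 1 and 2 it was 0.37 (SE 0.21).

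Of the transcription factors that act earlier, *Nkx2-2* (ENSMUSG00000027434; chr2:147177546-147194243, minus strand) encodes a homeodomain protein that patterns the ventral neural tube and later promotes differentiation of progenitors. It had 4.88, 5.62, 8.20 and 6.12 CPM at 0 ppm, against 7.40, 8.29, 6.46 and 8.38 CPM at 50 ppm. The groups overlapped through 0 ppm replicate 3 alone, which lay above 50 ppm replicates 1 and 3. The difference from 6.20 ± 1.42 to 7.63 ± 0.898 CPM (SD, n = 4) was about the size of the SD of the controls. The log2 fold change was 0.30 (SE 0.16, 95% interval -0.04 to 0.63), with an unadjusted p of 0.0836 (edgeR). The antisense gene *Nkx2-2os* covers 9.7% of its exon bases. *Tcf7l2* (ENSMUSG00000024985; chr19:55741820-55933654, plus strand), a mediator of Wnt signalling needed for oligodendrocyte maturation, varied widely between brains of a dose. It had 116, 178, 226 and 161 CPM at 0 ppm, against 104, 152, 172 and 149 CPM at 50 ppm. The mean was lower at 50 ppm, but the 2 ranges overlapped over most of their length. Its log2 fold change was -0.24 (SE 0.16, 95% interval -0.57 to 0.09), with an unadjusted p of 0.146 (edgeR). Without 0 ppm replicates 1 and 2 it was -0.43 (SE 0.13, unadjusted p of 0.00382, adjusted p of 0.645, edgeR), while *Nkx2-2* had 0.08 (SE 0.18).

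Thalamic neurons express *Tcf7l2* too. The summed level of 6 thalamic neuron markers was 294, 372, 429 and 426 CPM in 0 ppm replicates 1 to 4 and 356, 375, 389 and 439 CPM at 50 ppm. Replicate 1 was the lowest of its dose for both the markers and *Tcf7l2*. Of the 6 markers, *Lhx9* was lower at 50 ppm at an unadjusted p of 0.0224 (log2 fold change -0.31, edgeR) and the others had larger p-values. None of these markers was at 0, and their part in the level of *Tcf7l2* was not tested. For *Nkx2-2*, 6 markers of ventral hindbrain and serotonergic neurons summed to 27.6 to 41.4 CPM at 0 ppm and 24.8 to 43.7 CPM at 50 ppm, with 0 to 2 reads of *Nkx2-9* per brain, and their part was not tested either.

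*Gpr17* (ENSMUSG00000052229; chr18:31942997-31949636, minus strand) encodes a G protein-coupled receptor that marks committed progenitors and restrains their maturation. Its level was 32.8, 24.2, 30.0 and 35.1 CPM at 0 ppm, against 42.3, 30.6, 29.9 and 35.9 CPM at 50 ppm. Only 50 ppm replicates 1 and 4 were above the highest control. With means of 30.5 ± 4.72 and 34.7 ± 5.77 CPM (SD, n = 4), the difference was smaller than the SD of the exposed brains. The log2 fold change was 0.18 (SE 0.12, 95% interval -0.07 to 0.44), with an unadjusted p of 0.150 (edgeR) and an exact permutation p of 0.343. *Itpr2* (ENSMUSG00000030287; chr6:146108299-146502223, minus strand), the inositol trisphosphate receptor that releases calcium from the endoplasmic reticulum, had 16.8, 19.3, 21.5 and 18.7 CPM at 0 ppm, against 19.6, 20.9, 24.7 and 26.2 CPM at 50 ppm. Replicates 3 and 4 at 50 ppm were above the controls and replicates 1 and 2 within their range. Its log2 fold change was 0.26 (SE 0.11, 95% interval 0.03 to 0.49), with an unadjusted p of 0.0316 and an adjusted p of 0.999 (edgeR).

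The remaining 2 genes encode enzymes. *Sirt2* (ENSMUSG00000015149; chr7:28766735-28788661, plus strand), an NAD-dependent deacetylase that becomes abundant in myelin, had 75.2, 69.6, 85.4 and 79.0 CPM at 0 ppm, against 89.6, 91.4, 88.1 and 77.9 CPM at 50 ppm. Exposed replicates 1 to 3 were above all controls, and replicate 4 was not. The log2 fold change was 0.17 (SE 0.08, 95% interval 0.001 to 0.33), with an unadjusted p of 0.0485 (edgeR) and an exact permutation p of 0.0857. *Tmem2* (ENSMUSG00000024754; chr19:21778342-21858360, plus strand), a cell surface hyaluronidase listed in current tables as *Cemip2*, varied little between controls, with 76.8, 76.0, 79.6 and 75.6 CPM. At 50 ppm it split into 64.0 and 62.6 CPM in replicates 1 and 2 and 79.0 and 81.1 CPM in replicates 3 and 4. Its log2 fold change was -0.10 (SE 0.09, 95% interval -0.29 to 0.08). Without 0 ppm replicates 1 and 2 the values were 0.07 for *Sirt2*, -0.12 for *Tmem2*, 0.09 for *Gpr17* and 0.18 for *Itpr2*. The summed level of 6 endothelial markers was likewise lower in exposed replicates 1 and 2 (222 and 212 CPM) than in replicates 3 and 4 (265 and 258 CPM), with 199 to 241 CPM in the controls, and its part in the level of *Tmem2* was not tested.

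Levels were compared between genes only per kb of exon. At 0 ppm *Tcf7l2* had the highest level, 19.4 ± 5.15 CPM per kb, followed by *Sirt2* (15.4 ± 1.32), *Tmem2* (9.04 ± 0.213), *Gpr17* (5.88 ± 0.909), *Bcas1* (2.64 ± 0.578), *Nkx2-2* (2.16 ± 0.495), *Itpr2* (1.29 ± 0.130), *Myrf* (0.355 ± 0.0846) and *Enpp6* (0.193 ± 0.0769; SD, n = 4 each). *Tcf7l2* and *Sirt2*, and *Bcas1* and *Nkx2-2*, differed from each other by less than the larger SD of the pair. At 50 ppm *Bcas1* reached 5.19 ± 0.858 CPM per kb, close to *Gpr17* with 6.68 ± 1.11, and *Enpp6*, with 0.607 ± 0.217, was on a level with *Myrf*, with 0.542 ± 0.0976.

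The genes were also compared with those that mark the whole lineage. In bulk RNA from a whole brain, also in such ratios, the number of cells of a type or stage and the RNA per cell cannot be told apart. Relative to *Olig1*, *Olig2* and *Sox10*, transcription factors present from progenitor to mature cell, *Bcas1*, *Enpp6* and *Myrf* did not overlap between doses and the other 6 genes did. The mean log2 CPM of the 3 reference genes was 5.13 ± 0.074 at 0 ppm and 5.12 ± 0.184 at 50 ppm (SD, n = 4), a difference of -0.02 (exact permutation p = 0.943). For *Bcas1* the log2 ratio to the reference was -2.21, -2.10, -1.44 and -1.59 at 0 ppm and -0.67, -0.88, -0.88 and -0.90 at 50 ppm. For *Enpp6* it was -5.49, -5.12, -4.54 and -4.13 at 0 ppm and -3.06, -2.95, -3.92 and -2.95 at 50 ppm. For *Myrf* it was -4.07, -3.62, -3.16 and -3.26 at 0 ppm and -2.83, -2.88, -3.05 and -2.83 at 50 ppm. In each of these genes the lowest exposed brain lay above the highest control brain. This included 50 ppm replicate 3, whose CPM of *Enpp6* and *Myrf* had not. In that brain *Olig1*, *Olig2* and *Sox10* were each at their lowest level of all brains, 86.2, 28.5 and 9.49 CPM. The controls had at least 93.4, 31.5 and 11.2 CPM in that order. The *Enpp6* and *Myrf* ratios of 50 ppm replicate 3 thus passed the controls over a low reference, with CPM of both genes within the control range.

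The differences in log2 ratio were 1.00 for *Bcas1*, 1.60 for *Enpp6* and 0.63 for *Myrf*, each with an exact two-sided permutation p of 0.0286, the smallest that 4 against 4 brains can give. Once adjusted for the 9 comparisons made, none of these p-values is under 0.05. Without 0 ppm replicates 1 and 2 the differences were 0.68 for *Bcas1*, 1.11 for *Enpp6* and 0.31 for *Myrf*, still without overlap, and the exact test of 2 against 4 brains cannot go below 0.133. Among all 23113 genes, 0.956% had such a separation in the ratio to this reference. The differences for the other 6 genes, among 9 comparisons in all, were 0.20 for *Gpr17*, 0.33 for *Nkx2-2*, 0.27 for *Itpr2*, 0.19 for *Sirt2*, -0.20 for *Tcf7l2* and -0.10 for *Tmem2*, with exact permutation p-values of 0.171 to 0.6. Without the same 2 brains they were 0.04, 0.06, 0.14, 0.04, -0.46 and -0.16 in that order. With *Pdgfra* and *Cspg4* as the reference the differences for *Enpp6* and *Myrf* were 1.56 and 0.59 (exact permutation p = 0.0571 for both).

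**Figure D2:**
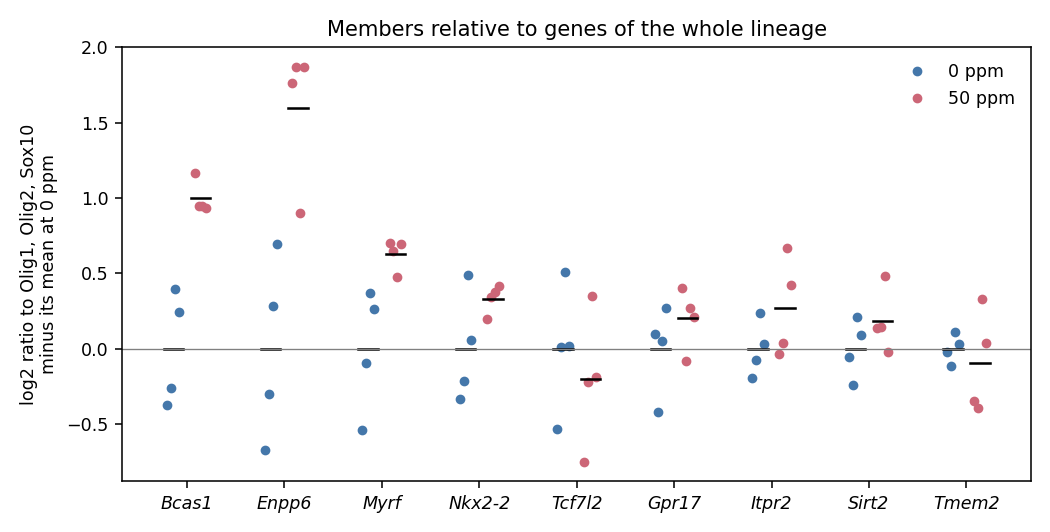
Log2 ratio of each gene to the mean of *Olig1*, *Olig2* and *Sox10* in the same brain, minus its mean at 0 ppm, for the 4 brains at 0 ppm (blue) and the 4 at 50 ppm (red); short lines are means. *Bcas1*, *Enpp6* and *Myrf* are separated between doses, with mean differences of 1.00, 1.60 and 0.63, and the other 6 genes overlap.

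*Gpr17* precedes *Bcas1*, *Enpp6* and *Myrf* in the passage from progenitor to oligodendrocyte, and the ratio of each of these 3 to *Gpr17* within a brain was compared after the values had been seen. The log2 ratio of *Bcas1* to *Gpr17* was -1.62 ± 0.351 at 0 ppm and -0.82 ± 0.158 at 50 ppm (SD, n = 4), and that of *Enpp6* to *Gpr17* was -4.61 ± 0.529 and -3.21 ± 0.568. The doses did not overlap in either ratio, with differences of 0.80 and 1.40 (exact permutation p = 0.0286 for both), and 0.273% of all genes had such a separation. For *Myrf* the difference was 0.43 and the doses overlapped (exact permutation p = 0.171). Because the 3 genes were picked after their higher levels had been seen, these p-values are no separate evidence. With 0 ppm replicates 1 and 2 left out the differences were 0.64 for *Bcas1*, 1.07 for *Enpp6* and 0.27 for *Myrf*, and the doses overlapped for *Myrf* alone. The exact permutation p was then 0.133 for *Bcas1* and *Enpp6*, the smallest it can give, and 0.4 for *Myrf*.

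Other genes of the lineage had median log2 fold changes of 0.05 in the list of progenitor markers, 0.02 in that of transcription factors, 0.24 in that of other committed and newly formed genes and 0.50 in that of myelinating markers, and differences between the lists were not tested. Of 9 progenitor markers none passed an unadjusted p of 0.05, with log2 fold changes of 0.09 (SE 0.07) for *Pdgfra*, the receptor for platelet-derived growth factor, and -0.04 (SE 0.09) for *Cspg4*. Of 8 inhibitors of differentiation, such as *Id4*, *Notch1* and *Sox6*, none passed either, and the median was -0.01. Of 9 lineage transcription factors 2 were higher at an unadjusted p under 0.05. These were *Zfp488*, a promoter of differentiation, with a log2 fold change of 0.70 (SE 0.20, unadjusted p of 0.00205, adjusted p of 0.745, edgeR) and *Nkx6-2* with 0.74 (SE 0.31, unadjusted p of 0.0277). *Zfp488* had 2.12, 3.68, 2.74 and 2.36 CPM at 0 ppm, against 3.75, 4.39, 5.53 and 4.06 CPM at 50 ppm, without overlap. *Olig1*, *Olig2* and *Sox10* had log2 fold changes of 0.01, -0.15 and 0.12.

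Of 10 other genes of committed and newly formed oligodendrocytes, 8 were on average higher at 50 ppm and 2 lower. *Ugt8a*, which makes the myelin lipid galactosylceramide, was the 1 gene of these with an unadjusted p under 0.05 (log2 fold change 0.44, SE 0.17, 0.0164 in edgeR's fit). *Bmp4* (0.44, SE 0.22), *Cnksr3* (0.30, SE 0.16) and *Neu4* (0.71, SE 0.43) followed. Of 14 myelinating oligodendrocyte markers, 8 were higher at an unadjusted p under 0.05, and none passed the adjusted test. *Mag*, a myelin adhesion molecule, had a log2 fold change of 1.15 (SE 0.22, adjusted p = 0.169, edgeR), and *Cnp* and *Mbp* had 0.52 and 0.49. *Mag*, *Mbp* and *Cnp* were above the controls in each exposed brain, and these 3 were also called by the study on these libraries. *Opalin*, *Trf* and *Mog* of the same list had 0 to 11 reads per brain.

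**Figure D3:**
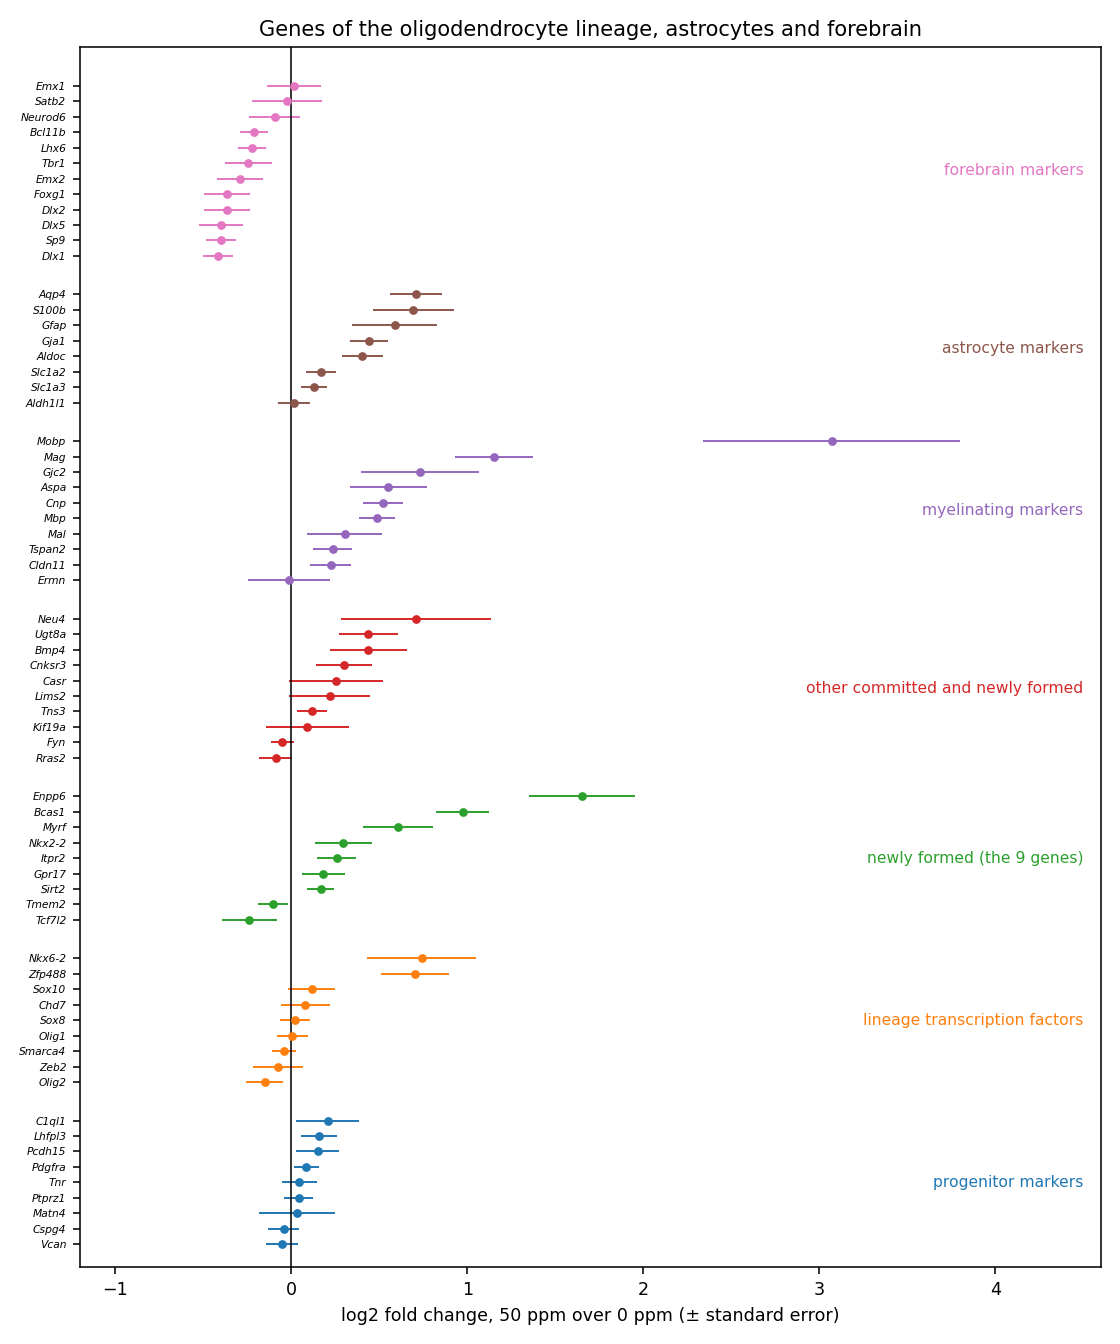
Log2 fold change, 50 ppm over 0 ppm, with its standard error (edgeR) for 67 genes with a mean of at least 0.5 CPM at either dose, grouped by stage of the oligodendrocyte lineage, with astrocyte and forebrain markers above. Progenitor markers lie near 0 (median 0.05), *Bcas1* and *Enpp6* lie at 0.97 and 1.65, and most myelinating and astrocyte markers lie to the right of 0 and most forebrain markers to the left.

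No marker of astrocytes, neurons, endothelial cells or Schwann cells passed the adjusted test (edgeR). All 8 astrocyte markers had positive log2 fold changes (median 0.42), 5 of them at an unadjusted p under 0.05, and their summed level was 872 to 1120 CPM at 0 ppm and 1125 to 1356 CPM at 50 ppm. *Aqp4*, the water channel of astrocyte endfeet, had a log2 fold change of 0.71 (SE 0.15). All 5 neuron markers had an unadjusted p over 0.05 (median 0.07), as had all 6 endothelial markers (median 0.10). Of 5 markers of Schwann cells, the myelinating cells of peripheral nerves, *Pmp2* was at 0 in all brains, 1 had an unadjusted p under 0.05, and the summed level was 7.70 to 9.50 CPM at 0 ppm and 8.78 to 12.1 CPM at 50 ppm. The part of these cell types in the levels of the 9 genes was not tested.

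The widest differences were in regional markers. Of 12 hindbrain and spinal cord markers *Hoxa3* was at 0 in all brains, and the other 11 were higher at 50 ppm at an unadjusted p under 0.05, 3 of them with an adjusted p under 0.05 (*Hoxb8*, *Hoxb7* and *Hoxb6*, edgeR), with a median log2 fold change of 1.81. Of 12 forebrain markers 8 were lower at an unadjusted p under 0.05, with a median of -0.27, and their summed level was 1290, 1212, 856 and 1017 CPM at 0 ppm, against 884, 945, 1038 and 995 CPM at 50 ppm. The 4 exposed brains had the same order for *Bcas1* as for the hindbrain markers, and the control brains had it except that replicates 3 and 4 changed places. The control brains with 0.341 and 3.35 CPM of these markers had the lowest *Bcas1*, and exposed replicate 1, with 179 CPM, the highest. At similar summed marker levels, 0 ppm replicates 3 and 4 (46.3 and 56.0 CPM) had 12.3 and 11.2 CPM of *Bcas1*. They had 1.37 and 1.859 CPM of *Enpp6* and 3.69 and 3.45 CPM of *Myrf*. In 50 ppm replicate 3 (50.1 CPM) the values were 15.5, 1.82 and 3.39 CPM in that order, each the lowest of the exposed brains.

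With the mean log2 CPM of the hindbrain and spinal cord markers as a second term in edgeR's fit, the log2 fold change of *Bcas1* was 0.46 (SE 0.18, unadjusted p = 0.0189, adjusted p = 1.00). That of *Enpp6* was 0.81 (SE 0.40), that of *Myrf* 0.10 (SE 0.28), and those of *Gpr17* and *Nkx2-2* turned to -0.03 and -0.05. With the forebrain markers as the second term the value for *Bcas1* was 0.53 (SE 0.16, unadjusted p = 0.00316, adjusted p = 1.00), for *Enpp6* 1.12 (SE 0.39) and for *Myrf* 0.21 (SE 0.25). No member passed the adjusted test in either fit. The hindbrain markers and the dose vary together in these 8 brains, so their parts in the level of the 9 genes cannot be told apart.

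**Figure D4:**
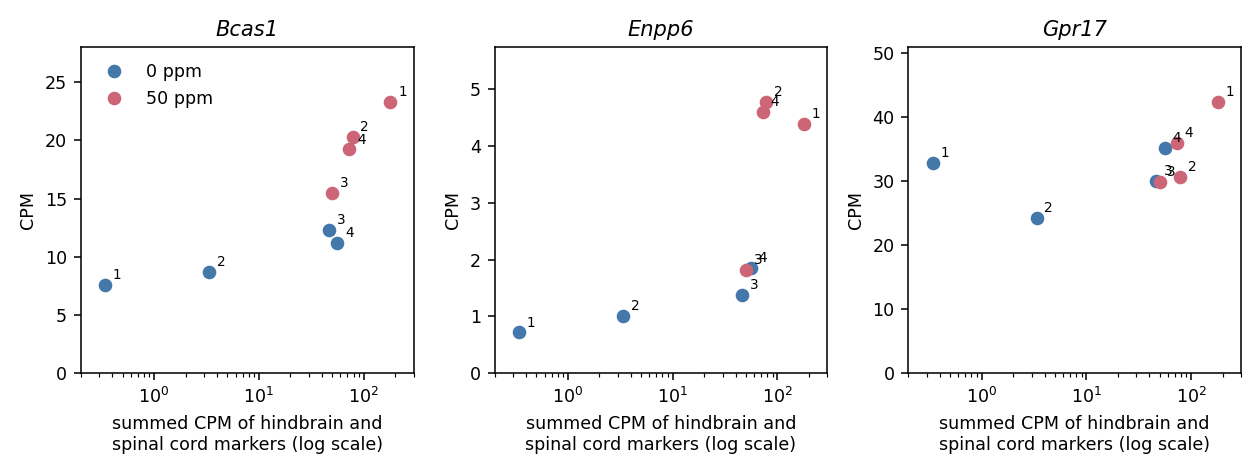
Level of *Bcas1*, *Enpp6* and *Gpr17* in CPM against the summed CPM of hindbrain and spinal cord markers (log axis) in the 4 brains at 0 ppm (blue) and the 4 at 50 ppm (red), numbered by replicate. The marker sum spans 0.341 to 179 CPM, and both *Bcas1* and *Enpp6* are higher in brains with more of these markers. *Enpp6* is at 4.39 to 4.77 CPM in 3 exposed brains and at most 1.859 CPM in the other 5. *Gpr17* shows less order, with its highest level, 42.3 CPM, in the brain with the most markers.

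How alike the 9 genes behaved apart from dose was described by the Pearson correlation of their log2 CPM after each dose's mean was subtracted, over the 8 brains, which share the spread of the regional markers. High values linked *Bcas1*, *Enpp6*, *Myrf* and *Nkx2-2*, of which *Enpp6* and *Nkx2-2* had the lowest, 0.69. *Bcas1* and *Myrf* had 0.92, *Enpp6* and *Myrf* 0.91, *Bcas1* and *Enpp6* 0.84, *Myrf* and *Nkx2-2* 0.84 and *Bcas1* and *Nkx2-2* 0.80. A second set held *Itpr2* with *Tmem2* (0.83) and with *Tcf7l2* (0.82), while *Tcf7l2* and *Tmem2* had 0.43. The sets were not distinct, since *Nkx2-2* had 0.58 with *Tcf7l2* and 0.47 with *Itpr2*. *Gpr17* had at most 0.46, with *Bcas1*, and -0.62 with *Tcf7l2*. Over all 36 pairs the median was 0.23, and 26 pairs were positive.

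**Figure D5:**
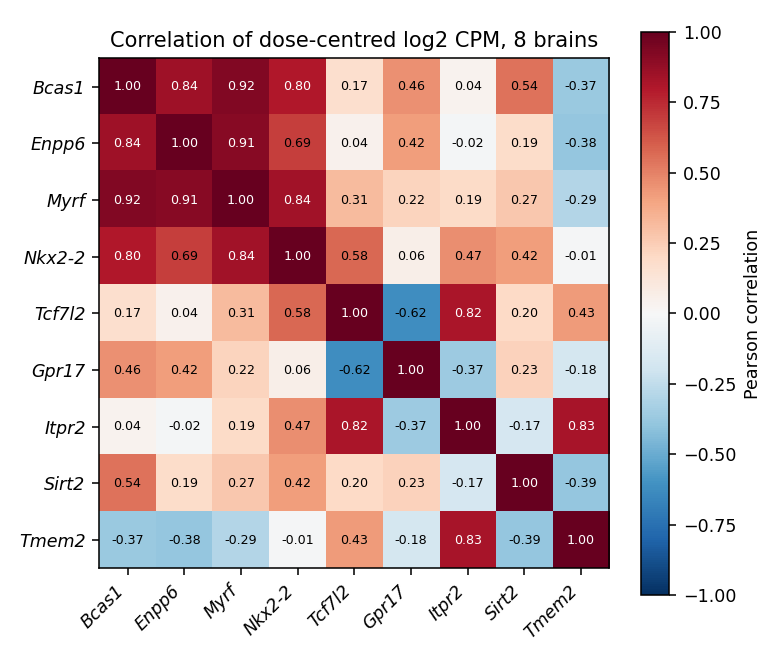
Pearson correlation between each pair of the 9 genes of log2 CPM centred within each dose, over 8 brains (colour scale from -1 to 1). *Bcas1*, *Enpp6*, *Myrf* and *Nkx2-2* form a block with 0.69 to 0.92, and *Tcf7l2*, *Itpr2* and *Tmem2* a looser one with 0.43 to 0.83. *Nkx2-2* also has 0.58 with *Tcf7l2*.

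Among the 14601 other genes with a mean of at least 1 CPM, the pattern of *Bcas1* was most like those of *Fam196b* (0.98), *Cmpk2* (0.97), *Sv2c* (0.97), *Gbx1* (0.96) and *Txndc15* (0.95). For *Enpp6* they were *Mtx2* (0.99), *Entpd6* (0.98), *Ajap1* (0.96), *Rad9b* (0.95) and *Oprk1* (0.95). None of these 10 genes belongs to the lists used here. Of the genes in the lists of the lineage, *Tspan2* ranked 18 and *Myrf* 26 for *Bcas1*, and *Myrf* ranked 21 and *Tspan2* 48 for *Enpp6*. Others ranked lower, such as *Enpp6* at 166, *Nkx2-2* at 257 and *Gpr17* at 2357 for *Bcas1*.

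In the separate alignment of the same reads to the C genome, identifiers could be paired with names for *Bcas1*, *Enpp6* and *Myrf*. Their log2 fold changes were 0.98 (SE 0.16), 1.59 (SE 0.31) and 0.64 (SE 0.20), near those of the B genome, as 2 alignments of the same libraries. The adjusted p-values were 0.0772, 0.211 and 0.945 (edgeR), so that 0 of these 3 genes passed, beside 0.0101% of all genes tested in that alignment. With DESeq2 on the C genome, a fit added after seeing the data, they were 5.06e-05, 0.00294 and 0.636. *Bcas1* and *Enpp6* passed in that fit, which called 20 genes in all. *Bcas1* again did not overlap between doses.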

How the data were processed

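Whole-brain poly(A) RNA of 8 newborn females was sequenced in 1 library per pup, 4 at 0 ppm and 4 at 50 ppm. The authors deposited raw counts of reads per gene, without normalization, for the alignments to the B (C57BL/6J, GRCm38) and C (CAST/EiJ) genomes, made by trimming initial bases, aligning with STAR and counting with HTSeq. Tool versions and the strand setting are not given in the sources used here.

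Genes at 0 counts in over 2/3 of the libraries were dropped, after the rule named in the methods, which kept 23113 genes of the table, a set that is not the authors' own. Counts were normalized by TMM and tested with edgeR 4.0.16 (glmQLFit, glmQLFTest, treatment only) in R 4.3.3, with Benjamini-Hochberg adjustment over all genes tested and a threshold of 0.05. The SE is the absolute log2 fold change divided by the square root of F. Log2 CPM used a prior count of 2. Single values were tested with exact two-sided permutation tests over 70 labellings. Alternatives used DESeq2 1.42.0 and limma 3.58.1. The code was tested on simulated data. Symbols, exons and transcripts came from GENCODE (GRCm38), promoters from RefSeq; of the C genome 120 of 37192 identifiers were named. *Tmem2* was matched through its synonym *Cemip2*.

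The 9 genes and all lists were chosen with earlier results of these data known. Besides the 9 genes, those named are the called genes of each list or up to 4 of its smallest p-values, the lineage references *Olig1*, *Olig2*, *Sox10*, *Pdgfra* and *Cspg4*, and the 5 genes most like *Bcas1* and *Enpp6*; others were named after their values were seen. Some single genes of the lists are not reported here. Brains of a dose differed by more than sampling noise.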

Additional observations from a re-analysis of the deposited data

Results flagged for a closer look

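In 36 groups of 4 brains tested, 4 had a brain far from the other 3 by Dixon's criterion (the 95% critical value for the gap over the range), where chance gives about 1 group in 20. *Enpp6* in 50 ppm replicate 3 had 1.82 CPM, with a gap of 0.868 of the range at that dose, and *Myrf* in the same brain had 3.39 CPM, with 0.903. The log2 ratio of *Enpp6* to *Olig1*, *Olig2* and *Sox10* was also low there, -3.92, with a gap of 0.890. The log2 ratio of *Bcas1* was high in 50 ppm replicate 1, -0.67, with a gap of 0.918. Beside these values, 50 ppm replicate 3 had the lowest summed level of hindbrain and spinal cord markers among exposed brains, 50.1 CPM, and of myelinating oligodendrocyte markers, 187 CPM against 241 to 268 CPM in the other 3, and 50 ppm replicate 1 had the highest of the former, 179 CPM. The part of these markers in the outlying values was not tested.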

How the results depend on the processing

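The 4 genes called became 18 with DESeq2, 52 without the filter, 2 with a minimum of 10 counts in 4 libraries, 1 with voom and sample weights, 1 with the forebrain score as covariate, 2 on the C genome and, in alternatives added after seeing the data, 20 on the C genome with DESeq2 and 7 without 0 ppm replicates 1 and 2. The 1 member called became 2 with DESeq2 and without the filter (*Enpp6* joined *Bcas1*). It became 0 with the minimum of 10 counts, voom, either score as covariate, edgeR on the C genome (3 named members) and without 0 ppm replicates 1 and 2. With DESeq2 on the C genome, *Bcas1* and *Enpp6* were called and *Myrf* was not. Leaving out 1 library gave 2 to 20 genes (20 without 0 ppm replicate 3, 8 without 50 ppm replicate 3) and 0 to 2 members (1 without 0 ppm replicate 3, 2 without 50 ppm replicate 3). *Bcas1* was called in 7 of 19 alternatives, with log2 fold changes of 0.46 to 1.10 and adjusted p of 7.18e-06 to 1.00, and *Enpp6* in 4 of 19, with 0.81 to 1.91 and 0.000362 to 1.00; both stayed positive. Signs reversed for *Gpr17* (-0.031 with the hindbrain score and -0.028 with the forebrain score as covariate) and *Nkx2-2* (-0.049 and -0.0010). With 1 library left out they reversed for the log2 ratio of *Tmem2* (-0.24 to 0.0044) and the list medians of lineage transcription factors (-0.013 to 0.067), inhibitors (-0.095 to 0.020), progenitor markers (-0.020 to 0.11), thalamic markers (-0.15 to 0.046) and ventral hindbrain and serotonergic markers (-0.073 to 0.11). Without 0 ppm replicates 1 and 2 the medians of inhibitors (0.055) and progenitor markers (-0.0011) reversed. The cause of these changes was not tested. With 3 against 4 brains the exact test cannot go below 0.0571. No paired analysis was possible because the labels give no replicate numbers shared between doses. *Enpp6* had 21 reads in its lowest library, and how far depth limits it was not tested.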

Other observations

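*Zeb2*, which encodes a repressor that promotes oligodendrocyte differentiation and is also abundant in neurons, was noticed after the values were seen as the lineage transcription factor least like *Bcas1*. Its level was 350, 332, 191 and 264 CPM in 0 ppm replicates 1 to 4 and 227, 250, 330 and 273 CPM in 50 ppm replicates 1 to 4, with a log2 fold change of -0.07 (SE 0.14). Centred within each dose, its correlation over the 8 brains was -0.95 with *Bcas1*, -0.88 with *Nkx2-2* and -0.83 with *Myrf*. The same correlations were 0.93, 0.79 and 0.84 for *Tspan2*, a tetraspanin of myelinating cells. Within each dose the brains had the same order for *Zeb2* as for the summed level of forebrain markers. The part of these regional markers in the correlations was not tested.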
